A study of Etheostoma caeruleum with 31 samples.

Results

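The 152 probes described here had their lowest signal in testis collected after spawning. They were chosen from a 1-colour Agilent microarray for the rainbow darter (Etheostoma caeruleum), a small freshwater fish of eastern North America. A probe was taken when its mean log2 signal in post-spawning testis lay at least 3 units, or 8-fold, below the lowest of its means in the other 4 stages. The 152 probes are 1.76% of the 8621 probes with identifiers beginning GT that were well above background on at least 5 arrays. The values that chose them are therefore those of the post-spawning stage against the lowest of the others, and these are given as a description with no test.

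RNA was taken from testis of adult male fish caught in a clean area of the Grand River, Ontario. Each array held 1 biological replicate, spoken of here as 1 fish, although the labels do not say whether animals were pooled. The stages, in calendar order, were spawning (May 2011, 7 arrays), post-spawning (August 2011, 6 arrays), recrudescence (October 2011, 5 arrays), developing (January 2012, 6 arrays) and pre-spawning (March 2012, 7 arrays). The labels name no treatment. Each stage was collected in 1 month, so that reproductive state, season and water temperature cannot be told apart. All levels below are log2 signal relative to the 75th percentile of the same array, so that a level of 0 is a bright probe and a negative level is a dimmer one.

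In fish that spawn once a year the testis is rebuilt annually. Spermatogonia, the stem and precursor germ cells, divide and enter meiosis as spermatocytes, which become spermatids and then sperm inside cysts formed by Sertoli cells. After spawning the testis regresses and residual sperm are cleared, recrudescence is the renewed growth of the germ cell population, and the testis then matures through winter towards the next season. The cell makeup of the tissue changes along this cycle, and in bulk RNA fewer cells of a type and less RNA per cell cannot be told apart.

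Probes are known here by identifier alone, with no gene or sequence paired to them, so that no gene, pathway or sequence can be given. The tissue label could not be checked against testis markers, and markers of other cell types that moved with the probes could not be examined. Each identifier holds 3 short fields whose meaning the sources used here do not give. Among the 152 probes 75.7% carried the field an, against 72.1% of all 8621 GT probes, and 66.4% carried the field s, against 69.2%. The field xh was carried by 46.1% of the 152 probes, against 32.9% of all.

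The 75th percentile of the spot intensity ranged over the 31 arrays between 2734 and 5093, and between 77.99% and 95.79% of probes were well above background. The arrays lay on 4 slides. Each slide held at least 1 post-spawning array, and slide 4 held no recrudescence array. In a limma fit with slide added to stage, 0 of the 152 probes differed between slides after adjustment, as did 0 of all 8638 probes tested. At an unadjusted p under 0.05, 2 of the 152 differed, and 426 of the 8638.

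The post-spawning stage stood apart on every array as far as the middle of the 152 probes went. Their median level on each array lay between 0.78 and 1.84 in spawning testis (1.49 ± 0.35, SD, n = 7). It lay between -3.97 and -2.76 in post-spawning testis (-3.66 ± 0.45, n = 6). In recrudescence the 5 arrays had medians of 2.08, 2.07, 1.76, 1.84 and 1.57 (1.86 ± 0.22, n = 5). The developing arrays lay between -0.11 and 0.95 (0.67 ± 0.39, n = 6), and the pre-spawning arrays between 0.56 and 1.57 (1.01 ± 0.35, n = 7). Thus no post-spawning array came near those of the other stages, recrudescence was the highest stage by its mean, and developing was the lowest of the 4 stages other than post-spawning.

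**Figure D1:**
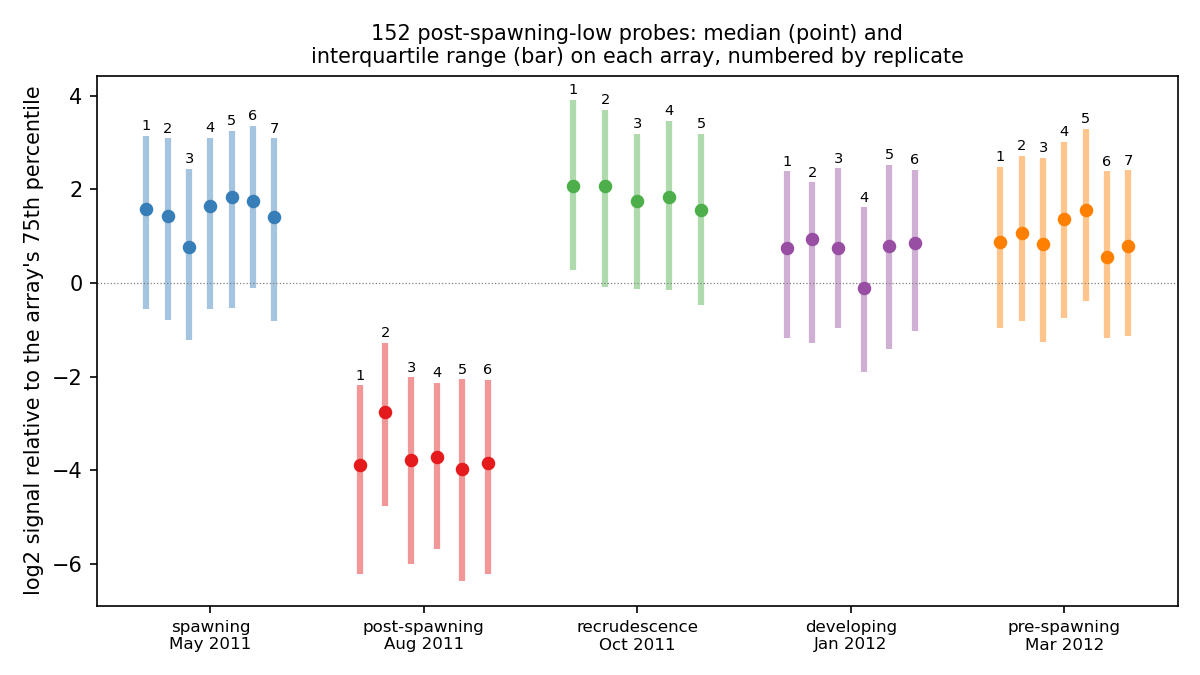
Median (point) and interquartile range (bar) of the 152 probes on each of the 31 arrays, on the log2 scale relative to the array's 75th percentile, by stage in calendar order, with replicate numbers above the bars. Post-spawning medians lie between -3.97 and -2.76, and the medians of all other arrays lie between -0.11 and 2.08.

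The size of the post-spawning gap, the post-spawning mean minus the lowest of the other 4 means, had a median of -3.83 over the 152 probes. For the 142 probes that exceeded background clearly on 1 or more post-spawning arrays, it was 8- to 16-fold for 83, 16- to 32-fold for 31, 32- to 64-fold for 17, 64- to 128-fold for 6 and 128- to 256-fold for 5. The other 10 of the 152 have only a bound, and with these at their bound the median gap was -3.82. Of the 142, 28 passed on only 1 to 5 post-spawning arrays. Their folds rest partly on signal that was not clearly above background, and are less exact than those of the 114 that passed on all 6. The 5 probes with the widest gaps, singled out here by that value, were GT_EA516_an_as_xh_1291, GT_EA516_an_s_xh_4141, GT_EA516_an_s_sp_2128, GT_EA516_an_s_sp_3339 and GT_EA516_an_s_xh_4796. Of the 6 post-spawning arrays, GT_EA516_an_s_xh_4141 and GT_EA516_an_s_sp_2128 passed on 5 and GT_EA516_an_s_xh_4796 on 3. The group has no natural edge at its limit: the nearest probes inside had gaps of -3.003, -3.008 and -3.010, and the nearest outside had gaps of -2.999, -2.998 and -2.987. A further 172 GT probes had gaps between 2 and 3 log2 units, and post-spawning was the lowest of the 5 stages for 2443 of the 8621.

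Against each stage in turn the median difference of the 152 probes was -4.81 for post-spawning minus spawning, -5.18 for post-spawning minus recrudescence, -4.16 for post-spawning minus developing and -4.62 for post-spawning minus pre-spawning. The rule used these contrasts, and it was by that choice that limma called all 152 lower in each. Of all 8638 probes tested, 28.1% were lower in post-spawning than in spawning testis, 23.4% than in recrudescence, 26.7% than in developing and 27.6% than in pre-spawning testis. The highest post-spawning array lay below the lowest of the 25 other arrays for 148 of the 152 probes, as it did for 11.1% of all probes tested, and this too follows from the choice.

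The working name of the group speaks of transcripts lost, and in most cases signal remained. In post-spawning testis 114 of the 152 probes still exceeded background clearly on all 6 arrays and 28 on 1 to 5 arrays, and 10 did so on none. On the arrays of the other stages, 150 of the 152 were well above background on all 25, and the other 2 on 24. For the 10 probes with no post-spawning array well above background the gap is only a bound. On each array it took the probe's own signal or, if higher, the lowest signal of any probe well above background. Against this bound their signal in the lowest other stage was 6.72-fold to 63.1-fold higher, with a median of 18.4-fold, and 9 of the 10 reached 8-fold. The bound is lenient, and a stricter one would give smaller folds. GT_EA516_an_s_sp_4287, with the 63.1-fold, read -6.73 on post-spawning replicate 2 without being well above background, while its mean bound was -8.14. The 114 probes that passed on all arrays are most of the group, and the description as post-spawning-low suits them better than lost.

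GT_EA516_an_as_xh_1291 had the widest gap of all. Its level lay between 3.75 and 4.82 in spawning testis, with a median of 4.60. In post-spawning testis it lay between -5.93 and -1.02, with a median of -3.23. The recrudescence arrays gave 5.68, 5.54, 5.04, 5.35 and 4.95. It lay between 3.79 and 4.90 in developing testis (median 4.41) and between 3.32 and 5.17 in pre-spawning testis (median 3.90). The post-spawning fish were all far below every other fish, yet they spread over almost 5 log2 units among themselves, with an SD of 2.07 (n = 6) against SDs of 0.31 to 0.59 in the other stages. All 6 post-spawning arrays measured the probe well above background, so that this spread lies within the measured range.

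GT_EA516_an_s_sp_3339, the second probe chosen for its gap among those above background on every array, was steadier. Its level lay between 3.88 and 5.01 in spawning testis, with a median of 4.81. In post-spawning testis it lay between -3.96 and -1.37, with a median of -2.99. It was 5.35, 5.25, 4.80, 4.97 and 4.84 in recrudescence. The developing arrays lay between 3.67 and 4.90 (median 4.45) and the pre-spawning arrays between 3.69 and 5.04 (median 4.08). Apart from the post-spawning fish its values formed 1 narrow band, in which the stages overlapped.

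**Figure D2:**
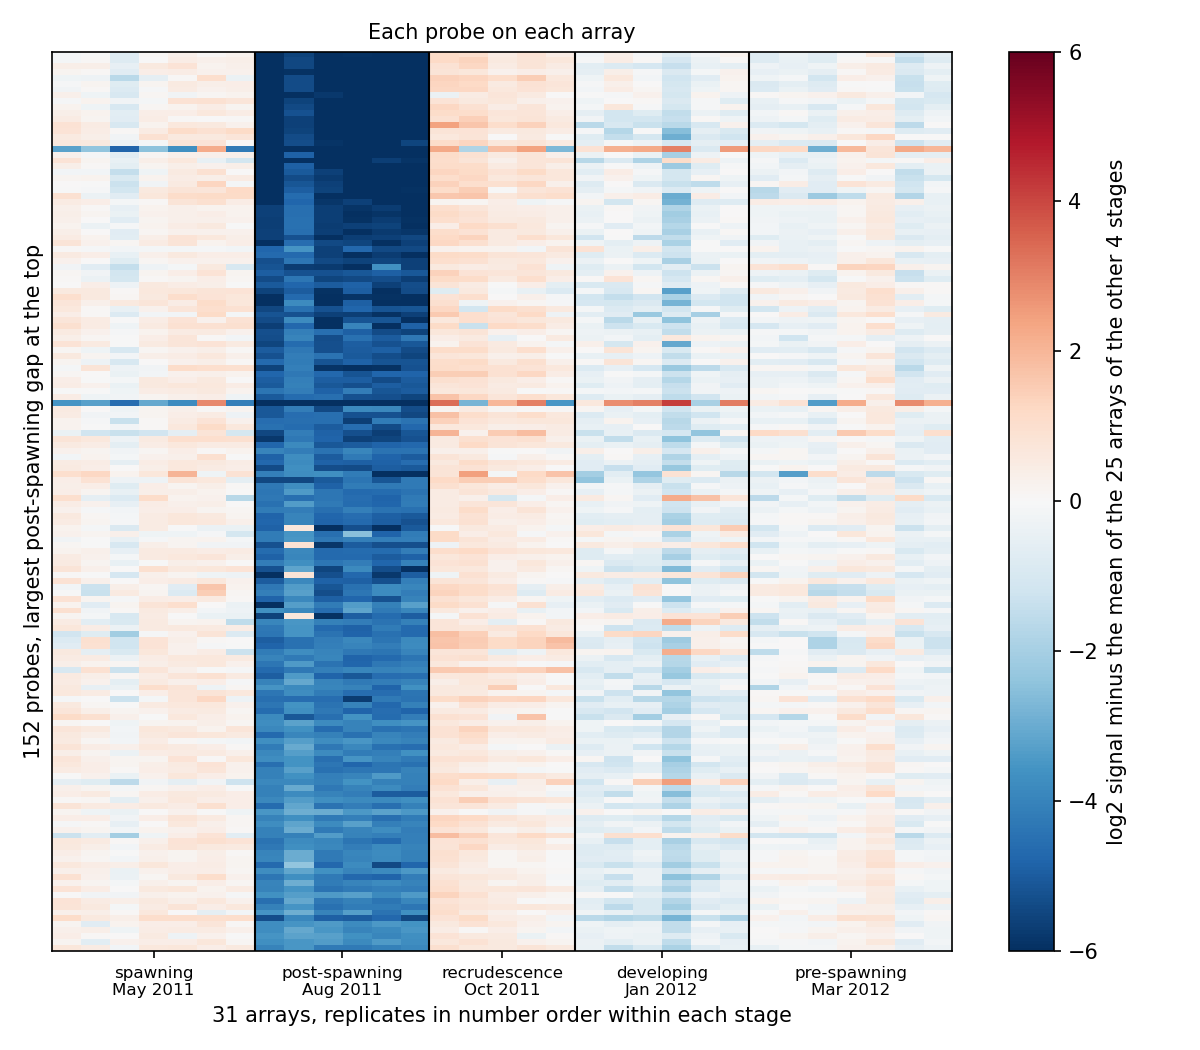
The 152 probes (one line each, widest post-spawning gap at the top) on the 31 arrays, as log2 signal minus the probe's mean over the 25 arrays of the other 4 stages, with blue for lower and red for higher. The post-spawning block is blue on all 6 arrays except at 4 lines where replicate 2 is pale, and developing replicate 4 shows as a pale blue column.

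The rule used the other 4 stages only through the lowest of their means. Differences among spawning, recrudescence, developing and pre-spawning testis were tested, with a limit. That lowest mean was the developing one for 118 probes and the pre-spawning one for 29. Tests that involve these stages, and the counts of the lowest stage, are therefore not wholly free of the choice. By a moderated F test in limma, 131 of the 152 probes (86.2%) differed among these 4 stages at an adjusted p under 0.05, against 69.5% of all probes tested. Recrudescence had the highest mean for 113 probes (74.3%), spawning for 27, developing for 11 and pre-spawning for 1, GT_EA516_un_as_sp_20940. Developing had the lowest mean for 118 (77.6%), pre-spawning for 29 and spawning for the 5 probes GT_EA516_un_as_sp_15814, GT_EA516_un_s_sp_33317, GT_EA516_un_as_sp_9361, GT_EA516_un_as_sp_22660 and GT_EA516_un_s_xh_6594. Recrudescence was the lowest for 0. Over all 8621 GT probes recrudescence was the highest of the 4 stages for 15.9% and developing the lowest for 27.4%, while developing was the highest for 44.1%.

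The clearest difference was between developing and recrudescence testis. Of the 152 probes, 124 fell in developing relative to recrudescence testis (81.6%), 0 rose and 28 were not called, where 15.7% of all probes tested were called lower and 27.0% higher. At an unadjusted p in limma under 0.05 the counts were 128 lower and 1 higher. The median difference was -1.17, against 0.16 over all GT probes, and 103 of the 152 were called and at least 2-fold lower, as were 5.93% of all probes tested. With scaling to the spike-in probes 73 were called lower and 0 higher. The working name also says that the loss was confined to post-spawning testis, and developing testis was a lesser low stage for most of these probes. For 106 probes every developing array lay below every recrudescence array, as it did for 9.86% of all probes tested. With 1 slide at a time, the median difference was -0.97 on slide 1, -1.26 on slide 2 and -1.44 on slide 3. These rest on few arrays, 2 of each stage on slides 1 and 3 and 1 of each on slide 2. Those of slide 3 include developing replicate 4, which was low in its stage for most of these probes.

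GT_EA516_an_s_sp_4287 had the largest of these falls among probes measured above background in every fish compared. In developing testis it lay between -2.74 and -0.88, with a median of -2.28, against 1.31, 0.55, -0.05, 0.27 and -0.47 in recrudescence. Every developing fish was below every recrudescence fish, and the difference was -2.48 (SE 0.43, limma, adjusted p = 4.42e-05). GT_EA516_un_s_sp_8765, a dim probe, lay between -6.19 and -5.08 in developing testis, with a median of -5.76, against -3.34, -3.10, -3.22, -3.16 and -3.81 in recrudescence. The stages did not overlap, and the difference was -2.42 (SE 0.37, limma, adjusted p = 9.11e-06). Neither probe was well above background on any post-spawning array.

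The 172 probes with post-spawning gaps between 2 and 3 log2 units shared this fall. Of them, 136 (79.1%) were lower in developing than in recrudescence testis and 5 were higher, with a median of -1.11. Recrudescence was the highest of the 4 stages for 53.5% of them, and developing the lowest for 83.7%. A low developing stage was thus frequent on both sides of the limit, by these counts. The limit itself acts on this comparison, since the gap is measured from the lowest other mean, mostly that of developing. A lower developing mean narrows the gap and moves a probe towards the outer set. The difference between the 2 sets was not tested.

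**Figure D3:**
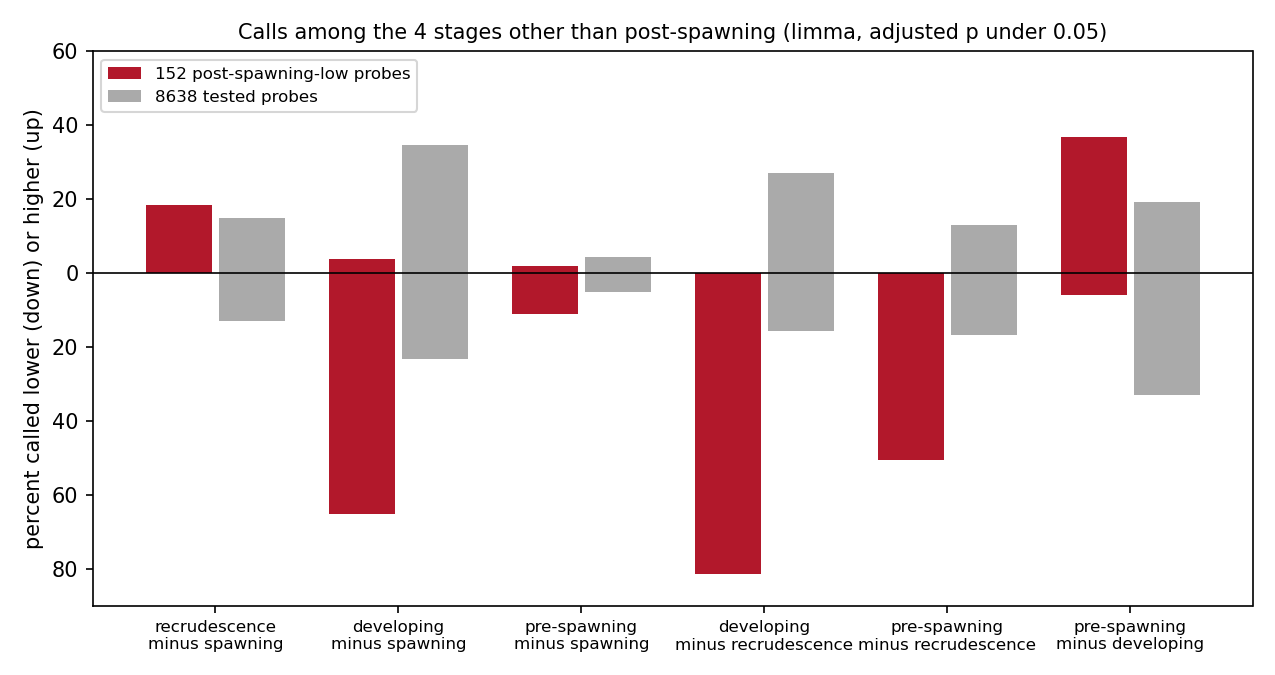
Percent of the 152 probes (red) and of all 8638 tested probes (grey) called higher (up) or lower (down) by limma at an adjusted p under 0.05 in the 6 contrasts among stages other than post-spawning. In developing minus recrudescence 81.6% of the 152 probes are lower, against 15.7% of all probes tested.

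Relative to spawning testis, developing testis had 99 of the 152 probes lower, 6 higher and 47 not called, where 23.3% of all probes tested were lower and 34.7% higher. The median difference was -0.83, against 0.12 over all GT probes. GT_EA516_an_s_xh_3596 had the largest fall. It lay between -0.77 and 0.67 in developing testis, with a median of 0.27, against 2.37 to 3.09 in spawning testis, with a median of 3.05. No developing fish reached the lowest spawning fish, and the difference was -2.73 (SE 0.25, limma, adjusted p = 8.00e-10). GT_EA516_an_s_sp_3920 lay between -4.01 and -2.13 in developing testis (median -2.32), against -0.95 to -0.16 in spawning testis (median -0.56). The stages again did not overlap, with a difference of -1.98 (SE 0.37, adjusted p in limma 5.44e-05).

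Between recrudescence and spawning testis, 28 of the 152 probes (18.4%) were called higher in recrudescence, 0 lower and 124 were not called. Of all probes tested 14.8% were higher and 13.1% lower, so that the share called higher was near that of all probes. At an unadjusted p under 0.05 limma had 43 higher and 1 lower. The median difference was 0.32. The count of calls was 16 without recrudescence replicate 1 and 18 without spawning replicate 3, 14, 10 and 16 without slide 1, 2 and 3, and 3 with scaling to the spike-in probes. GT_EA516_un_s_xh_12321 was at 1.61, -0.16, 1.09, 1.46 and 0.10 in recrudescence, against -1.74 to 0.35 in spawning testis (median -1.48). In recrudescence 3 of the 5 fish lay above all spawning fish, with a difference of 1.93 (SE 0.43, limma, adjusted p = 0.0014), and the call was lost without slide 3 (0.077).

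Pre-spawning testis set against recrudescence had 77 of the 152 probes lower, 0 higher and 75 not called, where 16.7% of all probes tested were lower and 13.0% higher. At an unadjusted p under 0.05 limma had 93 lower and 0 higher. The median difference was -0.79, against -0.007 over all GT probes. The count of calls was 29 without slide 2, 47 without slide 1 and 49 with scaling to the spike-in probes. GT_EA516_an_s_sp_2091 had the largest fall, and lay between -0.10 and 2.62 in pre-spawning testis (median 0.55), against 3.68, 3.71, 2.75, 3.03 and 3.10 in recrudescence. All 7 pre-spawning fish were below the 5 recrudescence fish, by 2.30 on the log2 scale as means (log2 difference -2.30, SE 0.52, limma, adjusted p = 0.0013). GT_EA516_un_s_xh_7674 spread between -1.67 and 2.68 in pre-spawning testis (median 0.70), against 2.41, 4.07, 1.52, 2.81 and 3.34 in recrudescence. These stages overlapped, with a difference of -2.08 (SE 0.67, limma, adjusted p = 0.020), and the call was lost without recrudescence replicate 2 (limma, adjusted p = 0.067), slide 1 (0.13) or slide 2 (0.33).

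In early spring some of these probes rose again. Relative to developing testis, pre-spawning testis had 56 probes higher, 9 lower and 87 not called, where 19.3% of all probes tested were higher and 33.1% lower. The median difference was 0.43, against -0.13 over all GT probes. This rise was not particular to the group. It was called for 36.8% of the 152 probes, and for 64.0% of the 172 probes with gaps between 2 and 3 log2 units (median 0.79). Of the 2443 probes lowest in post-spawning testis, 42.0% were higher. Scaling to the spike-in probes gave 14 higher and 15 lower, with medians of 0.046 for the 152 probes and -0.51 for all probes tested. Of the 124 probes that fell between recrudescence and developing testis, 55 were higher in pre-spawning than in developing testis, 66 were not called and the 3 probes GT_EA516_an_as_xh_1537, GT_EA516_an_as_xh_1538 and GT_EA516_an_s_sp_2740 were lower again. Of the 28 not called in the first step, 21 were not called in the second either, 6 were lower and GT_EA516_an_s_sp_2925 was higher. These 4 probes are named for falling in small classes, and were picked after their values were seen.

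GT_EA516_an_s_xh_3596, already described for its developing minimum, showed the largest rise. Its level lay between 1.78 and 2.98 in pre-spawning testis (median 2.26), against -0.77 to 0.67 in developing testis. The difference was 2.18 (SE 0.25, limma, adjusted p = 5.46e-08), with no overlap. In recrudescence it was at 2.83, 3.14, 2.45, 2.35 and 1.85, and in post-spawning testis it lay between -3.44 and -1.88 (median -2.95). This probe thus had a deep August minimum and a shallower January minimum, each shared by all fish of the stage. GT_EA516_an_s_xh_3325 lay between 2.95 and 4.18 in pre-spawning testis (median 3.19), against -0.0052 to 2.20 in developing testis (median 1.80), a difference of 1.75 (SE 0.34, limma, adjusted p = 8.30e-05).

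The largest falls between developing and pre-spawning testis were smaller. GT_EA516_un_s_sp_16473 lay between -2.23 and -0.58 in pre-spawning testis (median -1.84), against -1.28 to 0.41 in developing testis (median -0.14). The stages overlapped and differed by -1.44 (SE 0.37, limma, adjusted p = 0.0017). GT_EA516_un_s_xh_11096 lay between -0.68 and 2.01 in pre-spawning testis (median 0.14), against 0.20 to 3.10 in developing testis (median 1.51). It too overlapped, and differed by -1.41 (SE 0.45, limma, adjusted p = 0.010). That call was lost without slide 2 (limma, adjusted p = 0.083), slide 3 (0.066) or slide 4 (0.10).

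The fewest calls were made between pre-spawning and spawning testis. Pre-spawning testis had 3 of the 152 probes higher than spawning testis, 17 lower and 132 not called, where 4.39% of all probes tested were higher and 5.07% lower. The median difference was -0.36, and 140 of the 152 differences were negative. The number of calls, 20, rested on single arrays: it was 5 without spawning replicate 5 (3 higher and 2 lower), 6 without spawning replicate 7 or without pre-spawning replicate 7, and 7 without spawning replicate 1 or without pre-spawning replicate 6. It was 8 without pre-spawning replicate 1, 10 without pre-spawning replicate 2 or 3 or without spawning replicate 4 or 6, and 11 without spawning replicate 2. Leaving out some other arrays raised it, to 28 at most, without spawning replicate 3 (2 higher and 26 lower). With slide 1 or slide 2 left out limma called 0, while at an unadjusted p under 0.05 it had 4 higher and 37 lower without slide 1, and 2 higher and 17 lower without slide 2. Without slide 3 it called 1 higher and 29 lower. Without slide 4 it called 4 higher and 1 lower, and with scaling to the spike-in probes 0 higher and 2 lower.

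The 3 that were higher were all measured above background in every fish compared. GT_EA516_un_as_sp_15814 and GT_EA516_un_s_xh_12321 had the largest rises, of 3.57 (SE 0.95, limma, adjusted p = 0.018) and 1.37 (SE 0.40, adjusted p = 0.029). The other, GT_EA516_un_as_sp_20940, differed by 1.17 (SE 0.34, limma, adjusted p = 0.032). Among the called probes the largest falls were those of GT_EA516_an_s_sp_2091 and GT_EA516_un_s_sp_17545. GT_EA516_an_s_sp_2091 lay at -0.10 to 2.62 in pre-spawning testis against 1.38 to 3.23 in spawning testis. GT_EA516_un_s_sp_17545 lay at -0.39 to 0.43 in pre-spawning testis against 0.47 to 1.54 in spawning testis. The stage means of these probes differed by -1.69 (SE 0.47, limma, adjusted p = 0.024) and by -1.06 (SE 0.30, adjusted p = 0.025). The call of GT_EA516_an_s_sp_2091 was lost without pre-spawning replicate 3 (limma, adjusted p = 0.053) or spawning replicate 5 (0.051). The call of GT_EA516_un_s_sp_17545 was lost without pre-spawning replicate 7, spawning replicate 5 or spawning replicate 7 (limma, adjusted p 0.054 to 0.056). The call of GT_EA516_un_s_xh_12321 was lost without pre-spawning replicate 1, 4 or 7 or spawning replicate 4 or 7 (limma, adjusted p 0.054 to 0.059). That of GT_EA516_un_as_sp_15814 was lost with scaling to the spike-in probes (limma, adjusted p = 0.063), without slide 1 (0.10) and without slide 2 (0.23). Those of GT_EA516_an_s_sp_2091, GT_EA516_un_s_sp_17545 and GT_EA516_un_s_xh_12321 were also lost without slide 1 or 2, and, except for GT_EA516_an_s_sp_2091, with that scaling. Slide 4 decided the calls of GT_EA516_an_s_sp_2091 and GT_EA516_un_s_sp_17545 too (limma, adjusted p 0.18 and 0.12 without it), and slide 3 that of GT_EA516_un_s_xh_12321 (0.060).

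Some probes varied widely between fish of the same stage. GT_EA516_un_as_sp_15814 lay between -2.51 and -0.07 in 6 of the 7 spawning fish and at 4.54 in replicate 6. In post-spawning testis it lay between -6.42 and -4.71. The recrudescence arrays gave 4.59, 0.48, 4.10, 4.73 and -0.38, which form a high set of 3 fish and a low set of 2. In developing testis it lay between 3.14 and 5.32 in 5 fish and at 1.43 in replicate 5. In pre-spawning testis it lay between 3.03 and 4.57 in 6 fish and at -0.63 in replicate 3. The low August level was common to all post-spawning fish. The sets of the other stages were cut at the widest gap between fish, so that 2 sets result in any case. That gap was 4.61 in spawning, 3.62 in recrudescence and 3.66 in pre-spawning testis. In developing testis it was 1.71, not far from the 1.32 within post-spawning testis.

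GT_EA516_un_as_sp_9361 set the same fish apart, with widest gaps of 5.95 in spawning, 4.78 in recrudescence, 3.66 in pre-spawning and 2.58 in developing testis. It was at 2.71 in spawning replicate 6, against -4.74 to -3.24 in the other spawning fish, and at -7.74 to -6.70 in post-spawning testis. In recrudescence it was at 3.19, -2.99, 1.79, 2.81 and -3.68. Developing replicate 5 was at -2.14 and the other developing fish at 0.45 to 3.95. Pre-spawning replicate 3 was at -3.52 and the other pre-spawning fish at 0.14 to 2.63. Over the 25 arrays outside the post-spawning stage the levels of both probes had a Pearson correlation of 0.98, a description over arrays on which both probes share the sample, the labelling and the scan.

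Despite this spread, GT_EA516_un_as_sp_15814 was higher in developing than in spawning testis by 4.32 (SE 0.98, limma, adjusted p = 0.00047), and GT_EA516_un_as_sp_9361 by 4.72 (SE 1.21, adjusted p = 0.0015). GT_EA516_un_as_sp_15814 was also higher in recrudescence than in spawning testis by 3.05 (SE 1.04, limma, adjusted p = 0.028). That call was lost without recrudescence replicate 1, 3 or 4 or spawning replicate 3 or 7 (limma, adjusted p 0.054 to 0.094), without slide 1, 2 or 3 (0.062 to 0.42) and with scaling to the spike-in probes (0.094). The fish behind these differences overlap between stages in every case, since spawning replicate 6 lies among the high fish.

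**Figure D4:**
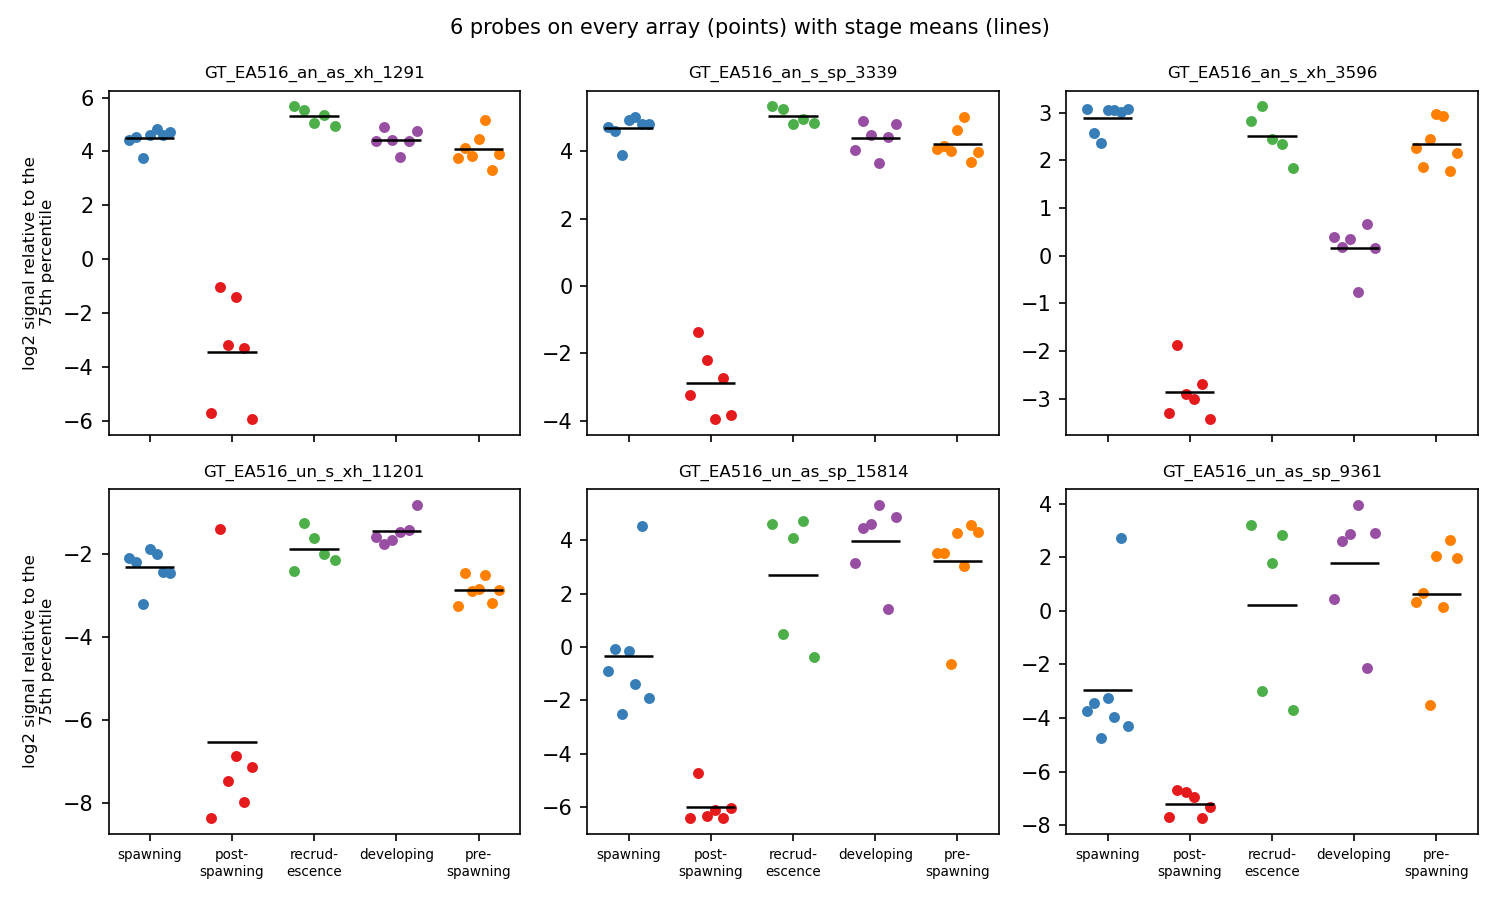
Levels of 6 probes on every array (points) with stage means (lines), on the log2 scale relative to the array's 75th percentile, each with its own vertical axis. The upper probes are low on all 6 post-spawning arrays, and GT_EA516_un_s_xh_11201 is at -1.40 in post-spawning replicate 2 alone of its stage. Both lower right probes vary widely between the fish of each other stage.

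The post-spawning fish were not alike. Replicate 2 had the highest level of its stage for 117 of the 152 probes, while over all probes tested it was the highest for 17.4%. Its median deviation from the median of the stage was 0.84 over the 152 probes. Over the 2600 probes that were higher in post-spawning than in each of the other stages, the median deviation of this fish was -0.15. In this fish, therefore, the probes low in August were less low and those high in August slightly less high.

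For 4 probes this fish had the level of another season. GT_EA516_un_s_xh_11201 was at -1.40 in post-spawning replicate 2 and at -8.37 to -6.88 in the other 5 post-spawning fish. Spawning fish lay between -3.20 and -1.87 and recrudescence fish were at -2.41, -1.26, -1.63, -2.01 and -2.16. Developing fish lay between -1.76 and -0.82 and pre-spawning fish between -3.27 and -2.46. GT_EA516_an_s_sp_3948 was at -2.03 in replicate 2, against -7.32 or lower in the other post-spawning fish. GT_EA516_an_s_xh_3448 was at -2.18, against -8.04 or lower, and GT_EA516_un_as_sp_22685 at -1.89, against -7.45 or lower. For all 4 probes the level of replicate 2 lay within the range of the developing fish and above every spawning fish. These 4, picked after their values were seen, were the probes whose post-spawning and other arrays overlapped. Replicate 2 was well above background for all 4. Of the other 5 post-spawning arrays, 1 was so for GT_EA516_un_s_xh_11201, 2 for GT_EA516_an_s_sp_3948, 1 for GT_EA516_an_s_xh_3448 and 0 for GT_EA516_un_as_sp_22685. Most of these low values were thus not well above background. The 4 probes are not independent of each other if they share a target, which the files used here do not show.

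Single fish also stood apart in other stages, some towards the post-spawning level over the 152 probes and some away from it. Developing replicate 4 had the lowest level of its stage for 122 of the 152 probes, against 16.8% of all probes tested, with a median deviation of -0.94. Over the 2600 probes high in August its median deviation was 0.17. Spawning replicate 3 was the lowest of its stage for 121 of the 152 probes, against 17.1% of all probes tested, with a median deviation of -0.66. Over the probes high in August the median deviation of this fish was 0. Recrudescence replicate 5 was the lowest of its stage for 100 of the 152 probes, against 16.4% of all probes tested, with a median deviation of -0.32. Over the probes high in August it was at 0.016. Pre-spawning replicate 6 was the lowest of its stage for 79 of the 152, against 8.49% of all, with a median deviation of -0.34, and at 0.10 over the probes high in August. Pre-spawning replicate 5 stood apart in the opposite direction, as the highest of its stage for 99 of the 152, against 18.5% of all probes tested, with a median deviation of 0.62. Pre-spawning replicate 4 also deviated upwards, by 0.41, and recrudescence replicates 1 and 2 by 0.28 and 0.24. These 2 recrudescence fish were the highest of their stage for 78 and 58 of the 152, against 24.8% and 18.7% of all probes tested.

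Post-spawning replicate 2, developing replicate 4 and spawning replicate 3 were all on slide 3, which also held 5 arrays of other fish, and the part of the slide in these deviations was not tested. On slide 3 alone the median gap of the 152 probes was -2.84, against -4.07, -4.10 and -4.22 on slides 1, 2 and 4. Slides 1, 2 and 3 held 1 post-spawning array each, and slide 4 held 3. The value of slide 3 thus has replicate 2 as its only post-spawning fish, and is not separate from the deviations of these fish. Without slide 3 the median gap of the same probes was -4.15. Without developing replicate 4 it was -3.97, and without post-spawning replicate 2 it was -4.03. The count of probes lower in developing than in recrudescence testis lay between 113 and 126 when any 1 array was left out. Without recrudescence replicate 1, which gave the 113, 1 probe was called higher.

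**Figure D5:**
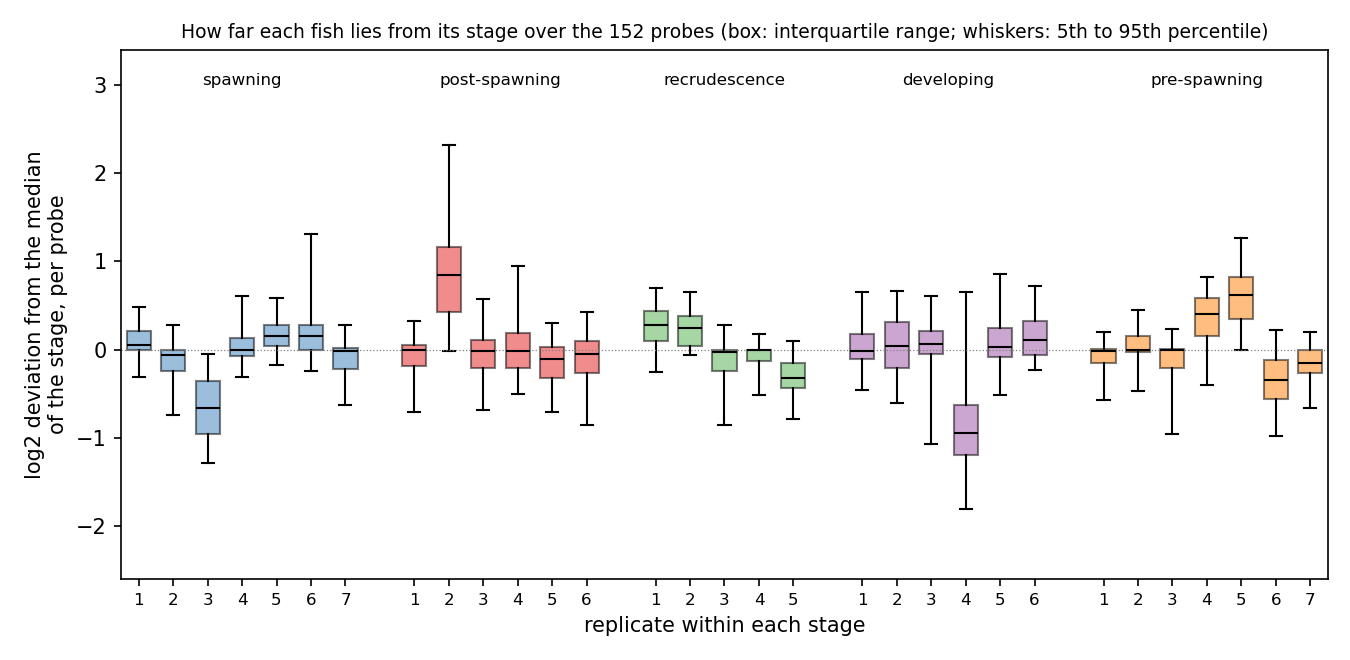
Deviation of each array from the median of its stage over the 152 probes on the log2 scale (box: interquartile range, line: median, whiskers: 5th to 95th percentile), by stage and replicate. Post-spawning replicate 2 has a median of 0.84, developing replicate 4 of -0.94 and spawning replicate 3 of -0.66.

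By medians, spread between fish exceeded spread between spots. The median SD over fish of the 152 probes was 0.36 in spawning and 0.47 in post-spawning testis. It was 0.33 in recrudescence, 0.52 in developing testis and 0.42 before spawning, and over all probes tested it was 0.26 to 0.29 in each stage. For the 133 probes with 2 spots, the median SD between spots of an array was 0.04 to 0.07 by stage. Its root mean square, which weighs large differences more, was 0.30 in post-spawning testis and 0.07 to 0.09 in the other stages. The rule was met by each spot alone for 128 of the 133, and the gaps from the separate spots differed by a median of 0.05 and by at most 0.87.

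Some probes gave nearly the same course and may not count separately. Their courses over the 31 arrays were compared apart from constant differences in level between probes. Probes were joined where these courses differed by a root mean square under 0.1 log2 units. In this way 28 of the probes fell into 11 sets, the largest of 5, which leaves 135 distinct courses. That number depends on the limit, and was 123 at 0.15 and 116 at 0.2. With 1 probe per course, 79.3% of the 135 were called lower in developing than in recrudescence testis and 0 higher, with a median difference of -1.18. On that basis 47 of 135 were higher and 8 lower in pre-spawning than in developing testis, and 69 were lower in pre-spawning than in recrudescence testis.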

How the data were processed

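Testis RNA of 31 samples was labelled with Cy3 and hybridised to 1-colour arrays, per the labels. The deposited scanner output, made with Agilent Feature Extraction 10.7.1.1 per the file headers, holds the linear intensity of each spot after background correction, with no normalisation across arrays. The authors' table of log2 values served as an alternative, with its normalisation not given in the sources used here. It kept the rank order of the scanner intensity on every array (Spearman rho of 1).

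For each array, log2 of the processed intensity was taken relative to its 75th percentile over non-control spots, 426 spots that carried outlier flags were dropped, and each probe's spots were averaged. The 8638 probes of which at least a share of 0.5 of the spots was well above background on at least 5 arrays were tested, and 403 dimmer ones were left out. The 152 probes were the same with the flagged spots kept. All 5 stages were fitted together with lmFit and eBayes of limma 3.58.1, run in R 4.3.3, with Benjamini-Hochberg adjustment over all tested probes per contrast and a threshold of 0.05. The spread between post-spawning fish therefore also enters the SEs of contrasts that leave that stage out. Contrasts are the later minus the earlier stage of the sampled year, or post-spawning minus another stage. The fit was checked on simulated data.

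The probes described, and the lists, were chosen with earlier results of these data known. Named probes are the 2 with the largest gap among those well above background on all arrays, and for each of the 6 contrasts without post-spawning the 2 largest rises and 2 largest falls past 0.05, measured well above background in every fish compared and keeping their direction without any 1 array. Probes named by another rule are said to be. Lists of germ cell, Sertoli, Leydig, blood and other markers gave no result, since the files used here pair no probe with a gene. Alternatives were normexp background correction (offset 50), quantile normalisation, median centring, scaling to 5 spike-in probes, the authors' table, other filters, slide or replicate number as a block, weighting of arrays, a trend of the variance with intensity, and dropping each array or slide in turn. Keeping the flagged spots was added after seeing the data. For arrays, the number of fish limits the precision.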

Additional observations from a re-analysis of the deposited data

Results flagged for a closer look

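In each stage, 18 quantities were examined for a single array far from the others of its stage by Dixon's test, which gave 90 groups, of which 22 stood out; chance alone picks about 1 in 20 groups, and quantities measured on the same array are not independent. The median level of the 152 probes stood out as low in spawning replicate 3 (0.78) and developing replicate 4 (-0.11) and as high in post-spawning replicate 2 (-2.76). Post-spawning replicate 2 was also far above the other arrays of its stage for GT_EA516_un_as_sp_15814 (-4.71), GT_EA516_an_s_sp_2091 (-2.57), GT_EA516_un_s_sp_17545 (-5.20) and GT_EA516_an_s_xh_3325 (-2.44). Developing replicate 4 was far below its stage for GT_EA516_an_s_xh_3596 (-0.77), GT_EA516_an_s_sp_3920 (-4.01), GT_EA516_an_s_sp_2091 (-0.93) and GT_EA516_an_s_xh_3325 (-0.0052). Spawning replicate 3 was far below its stage for GT_EA516_an_as_xh_1291 (3.75), GT_EA516_an_s_sp_3339 (3.88) and GT_EA516_an_s_sp_4287 (-2.07).

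Spawning replicate 6 was far above its stage for GT_EA516_un_as_sp_15814 (4.54) and GT_EA516_un_as_sp_9361 (2.71), and pre-spawning replicate 3 was far below its stage for the same probes (-0.63 and -3.52). Developing replicate 6 was high for GT_EA516_an_s_sp_4287 (-0.88). Post-spawning replicate 4 was low for GT_EA516_un_s_sp_8765 (-10.17), which was not well above background on that array. This array also had the highest share of probes well above background of its stage (95.79%). Pre-spawning replicate 3 had a 75th percentile of intensity of 4187, far above the other arrays of its stage.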

How the results depend on the processing

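No median difference of the 152 probes changed its sign under any alternative run, but the balance of calls turned in 2 comparisons: pre-spawning minus developing had 14 higher and 15 lower with spike-in scaling, and pre-spawning minus spawning had 4 higher and 1 lower without slide 4 and 3 higher and 2 lower without spawning replicate 5. The 152 probes by the rule were 108 with normexp, 164 with median centring, 172 with quantile normalisation or the authors' table, 178 with spike-in scaling and 128 to 186 with 1 slide left out, and leaving out 1 array gave 141 to 169. Their median gap of -3.83 was -3.33 with normexp. Spike-in scaling shifted the median difference of all probes tested by -0.38 in pre-spawning minus developing, -0.26 in pre-spawning minus spawning and -0.17 in pre-spawning minus recrudescence. The shift was 0.21 in developing minus recrudescence and 0.11 in developing minus spawning. Quantile normalisation, median centring and the authors' table shifted that median by 0.10 to 0.11 in pre-spawning minus developing. With spike-in scaling the calls were 3 in recrudescence minus spawning, 2 in pre-spawning minus spawning, 73 in developing minus recrudescence, 49 in pre-spawning minus recrudescence and 29 in pre-spawning minus developing, where the median was 0.046 and 48.3% of the calls were higher, against 86.2% by the 75th percentile. Without slide 1, 2 or 3 recrudescence minus spawning had 14, 10 and 16 calls. Pre-spawning minus spawning had 0 calls without slide 1 and without slide 2, 1 higher and 29 lower without slide 3, and 5 calls without slide 4. Pre-spawning minus recrudescence had 47 without slide 1 and 29 without slide 2. These fits have fewer arrays, and the cause of the spike-in and normexp changes was not tested. Leaving out 1 array gave 16 to 34 calls in recrudescence minus spawning, 94 to 117 in developing minus spawning, 5 to 28 in pre-spawning minus spawning, 114 to 126 in developing minus recrudescence, 56 to 85 in pre-spawning minus recrudescence and 58 to 73 in pre-spawning minus developing. Of the calls in pre-spawning minus spawning 15% were higher, 28.6% with median centring, 80% without slide 4 and 60% without spawning replicate 5. Same-numbered fish of different stages had correlated deviations between -0.22 and 0.20 (median -0.003, 57 pairs), and 2 of 31 arrays matched best with their own number, so the numbers do not pair the fish. With the replicate number as a block pre-spawning minus spawning had 13 calls, of which 30.8% were higher, and the other 5 counts stayed within 1.5 times. For named probes 40 of 841 values under alternatives were no longer past the threshold, all in the same direction. Depth in an array is signal over background, which limits 10 of the 152 probes to a bound in post-spawning testis. For 28 more, part of the post-spawning values were not clearly above background.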

Other observations

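The highest other stage was developing for 11 of the 152 probes, which include GT_EA516_un_as_sp_15814, GT_EA516_un_as_sp_9361 and the 4 probes at which post-spawning replicate 2 had the level of another season. None of the 11 was called higher in developing than in recrudescence testis by limma, and their differences lay between 0.24 and 1.54 on the log2 scale. The fit shares 1 spread over all 5 stages. The 4 probes had post-spawning SDs of 2.44 to 2.57, with replicate 2 far from the rest, against 0.25 to 0.52 in the other stages. Their lack of a call is thus not evidence of equal levels. Of the 152 probes, 6 were higher in developing than in spawning testis. Beside GT_EA516_un_as_sp_15814 and GT_EA516_un_as_sp_9361 these were GT_EA516_an_as_sp_2594 (1.08), GT_EA516_un_as_sp_22660 (1.51), GT_EA516_un_s_sp_16473 (1.18) and GT_EA516_un_s_xh_6594 (0.28), given as log2 differences and picked after their values were seen.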
